A study of Cicer arietinum with 8 samples.

Results

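Root RNA was sequenced from 2 chickpea (Cicer arietinum) genotypes, the drought-tolerant ICC4958 (DT) and the drought-sensitive ICC1882 (DS), each watered (control, C) or kept without water (drought, D). The genes described here are those whose RNA level was higher in ICC1882 than in ICC4958 whatever the water. They were selected on their FPKM values: a gene was taken when it carried an identifier, had an FPKM above 0 in all 4 conditions, and had a gap of at least 1. FPKM is the number of fragments on a gene scaled to transcript length and to the fragments mapped in all, and the gap is the lower of the DS(C) and DS(D) values minus the higher of the DT(C) and DT(D) values, on the log2(FPKM + 1) scale. Of 18807 genes that could be compared, 45 met this rule, which is 0.239% of them, and the whole table holds 30978 loci.

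The 8 libraries are 2 of each condition, from roots of plants 27 days old by the sample labels. The labels put the start of drought at an age of 16 days and its length at 11 days without water, whereas the methods of the study describe younger plants and a longer stress. Control plants were watered on alternate days, and the labels name no transgene or other treatment in either genotype. Each deposited value pools the 2 libraries of a condition, so replicate error is unknown from these values and no test could be run on them. Every difference below is a difference between 2 pooled values. The study ran its own tests with Cuffdiff, including DT(C) against DS(C), and those results are not used here. In pooled root tissue, fewer cells of a type and less RNA per cell cannot be told apart.

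A gene that differs between lines of a species in every treatment is called constitutively different, in contrast to a gene that responds to the treatment. As background, such differences are known between crop lines for genes that differ in their regulatory sequence or copy number. Responses to drought in roots include hormone signalling by abscisic acid, changes in the cell wall and the build-up of protective solutes. None of the 45 identifiers matched the RefSeq gene table of the genome assembly Cicar.CDCFrontier_v2.0. The same was true of every other locus of the deposited table, which pairs no identifier with a gene name. The genes are therefore given by identifier, without a function, and for the same reason root marker genes could not be looked up to check the tissue.

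The study designed an oligonucleotide pair for a single gene of the 45, Ca_15492, which it had picked for RT-qPCR. RT-qPCR is a measurement of RNA by copying a short stretch of its cDNA between a forward and a reverse primer. Of the 17 genes picked for RT-qPCR, all could be compared and only Ca_15492 met the rule, beside 0.239% of all genes compared. The study picked them for differential expression in its own RNA-seq comparisons, so this overlap is not independent of these data. The primers are shown because they bound the stretch of this gene that RT-qPCR reads. The study ran RT-qPCR on its picked genes and reports a high correlation with its RNA-seq values over those genes. Those measurements are not used here. Each is written 5′ to 3′, and the capitals mark the last 5 bases at the 3′ end, from which the polymerase extends.
Ca_15492 forward primer: cttcaactgatcaacatgtggAGAGT
Ca_15492 reverse primer: ggtggccatccaactatCTTTG
The forward primer has 26 bases with 42.3% G and C, and the reverse primer has 22 bases with 50% G and C. Ca_15492 had 31.4 FPKM in DS(C), 27.0 in DS(D), 10.9 in DT(C) and 12.6 in DT(D). Its gap of 1.04 lies close to the limit of the rule, and both genotypes kept nearly the same level with and without water.

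The size of the gap varied widely among the 45 genes, from 1.01 to 4.79 with a median of 1.32. It was at least 2 for 10 genes and at least 3 for 2 genes. As a ratio of FPKM without a pseudocount, the lower DS value was 2.03 to 73.0 times the higher DT value, with a median of 3.26, and 7 genes reached 10 times or more. The levels ran over more than 3 orders of magnitude, from 1.77 to 2945 FPKM in DS and from 0.0342 to 1042 FPKM in DT. The median FPKM was 17.5 in DS(C), 13.3 in DS(D), 2.96 in DT(C) and 2.22 in DT(D), whereas over all genes compared the medians were 12.8, 13.4, 14.6 and 14.1. These values chose the genes and are a description of them. Together the 45 genes held 0.314% of the summed FPKM in DS(C), 0.38% in DS(D), 0.105% in DT(C) and 0.122% in DT(D).

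**Figure D1:**
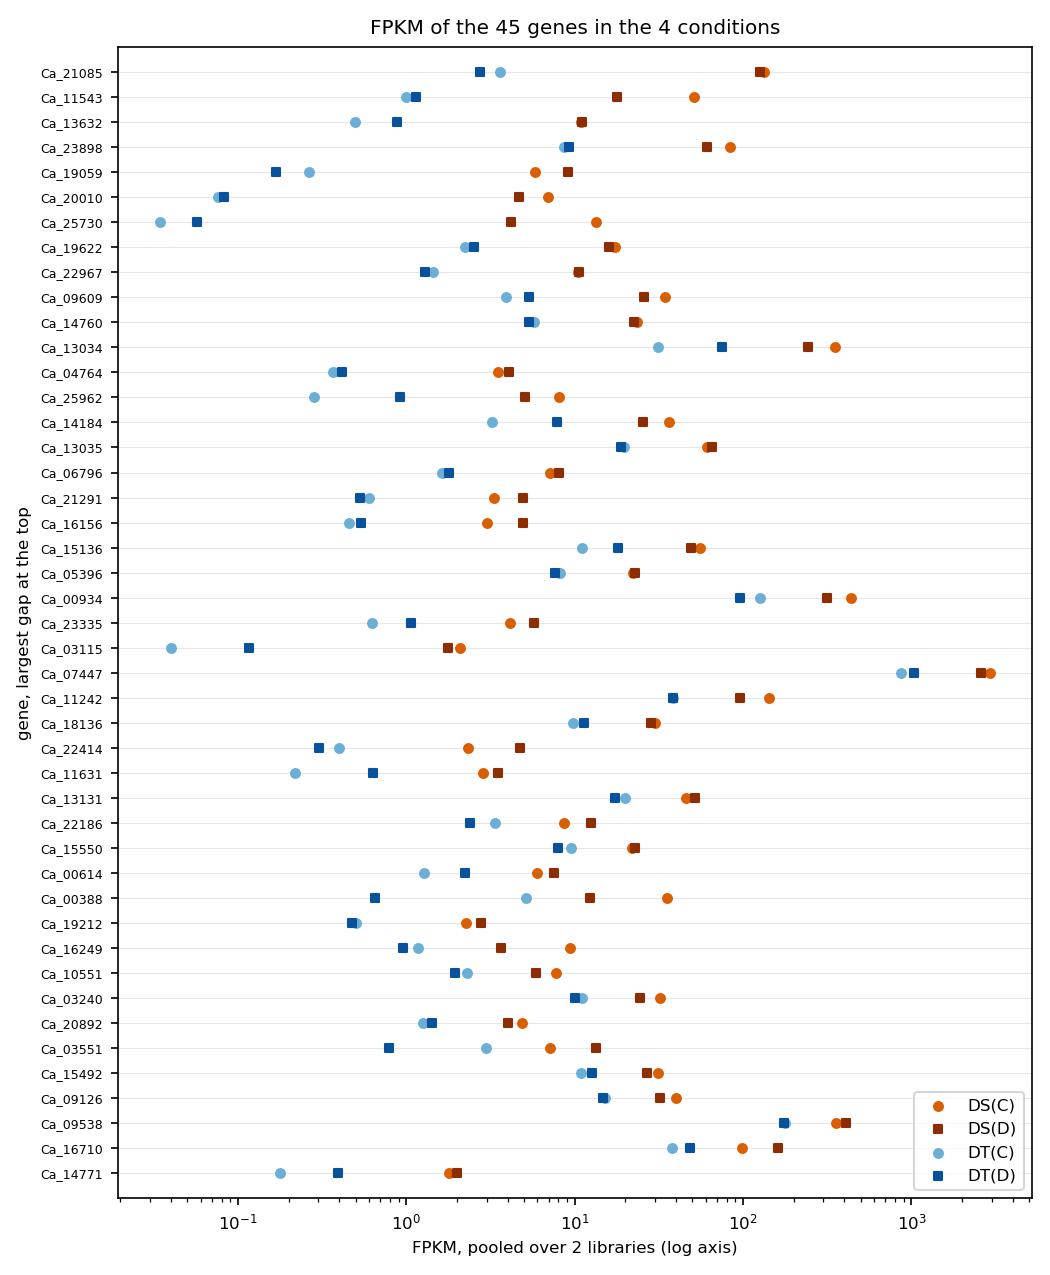
FPKM of the 45 genes (rows, largest gap at the top) in DS(C), DS(D), DT(C) and DT(D) on a log axis, 1 pooled value of 2 libraries per point and no error bar. Both DS points lie to the right of both DT points in every row, by the rule, and the levels run from 0.0342 to 2945 FPKM.

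Ca_21085 stood at the head of the list. It had 133 FPKM in DS(C), 125 in DS(D), 3.58 in DT(C) and 2.73 in DT(D), so that it was strongly expressed in ICC1882 and weakly in ICC4958. Its DS value was 37.0 times the DT value under control and 45.9 times under drought. The gap of 4.79 was the largest of the 45, and drought moved it little in either genotype. Ca_11543 came next, with 51.2 FPKM in DS(C), 17.9 in DS(D), 1.00 in DT(C) and 1.15 in DT(D), and a gap of 3.14. The DS level of this gene was lower under drought, while its DT level stayed near 1.

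Ca_13632 had 10.9 FPKM in DS(C), 11.0 in DS(D), 0.499 in DT(C) and 0.876 in DT(D), with a gap of 2.67. Ca_23898 was higher throughout, with 83.3 FPKM in DS(C), 61.1 in DS(D), 8.63 in DT(C) and 9.20 in DT(D), and a gap of 2.61. The gaps of these 2 genes are alike only with the pseudocount of 1: with none they were 3.64 for Ca_13632 and 2.73 for Ca_23898. Ca_19622 had 17.5, 16.0, 2.24 and 2.52 FPKM in DS(C), DS(D), DT(C) and DT(D). Ca_09609 had 34.2, 25.7, 3.92 and 5.32 FPKM in the same order. Both were more than 4 times higher in the lower DS condition than in the higher DT condition.

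In 13 of the 45 genes the FPKM was under 1 in both DT conditions, beside 8.62% of all genes compared. The rule favours such genes, so this is a description. Their DS values lay between 1.77 and 13.3 FPKM, and their ratios depend on very small DT values. Ca_25730 had 13.3 FPKM in DS(C), 4.18 in DS(D), 0.0342 in DT(C) and 0.0572 in DT(D). Ca_20010 had 6.97 FPKM in DS(C), 4.64 in DS(D), 0.0761 in DT(C) and 0.0827 in DT(D). Ca_19059 had 5.81 FPKM in DS(C), 9.12 in DS(D), 0.265 in DT(C) and 0.169 in DT(D). These 3 genes were close to 0 in ICC4958 with and without water, and above 4 FPKM in ICC1882. The remaining genes under 1 FPKM in DT were Ca_13632, given above, and Ca_04764, Ca_25962, Ca_21291, Ca_16156, Ca_03115, Ca_22414, Ca_11631, Ca_19212 and Ca_14771.

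The other end of the range holds genes that were abundant in both genotypes. Ca_07447 had 2945 FPKM in DS(C), 2579 in DS(D), 869 in DT(C) and 1042 in DT(D). Ca_09538 had 359 FPKM in DS(C), 411 in DS(D), 177 in DT(C) and 176 in DT(D). Ca_00934 had 437 FPKM in DS(C), 316 in DS(D), 126 in DT(C) and 95.9 in DT(D). In these genes the ratio was moderate, with DS(C) at 3.39 times DT(C) for Ca_07447, 2.03 times for Ca_09538 and 3.48 times for Ca_00934. Somewhat lower, Ca_11242 had 143 FPKM in DS(C), 96.2 in DS(D), 38.2 in DT(C) and 38.6 in DT(D). Ca_15136 had 55.3 FPKM in DS(C), 48.8 in DS(D), 11.1 in DT(C) and 18.1 in DT(D). Ca_13131 had 45.8, 51.9, 19.8 and 17.2 FPKM in DS(C), DS(D), DT(C) and DT(D), and Ca_09126 had 39.7, 32.0, 15.1 and 14.7 FPKM in the same order.

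**Figure D2:**
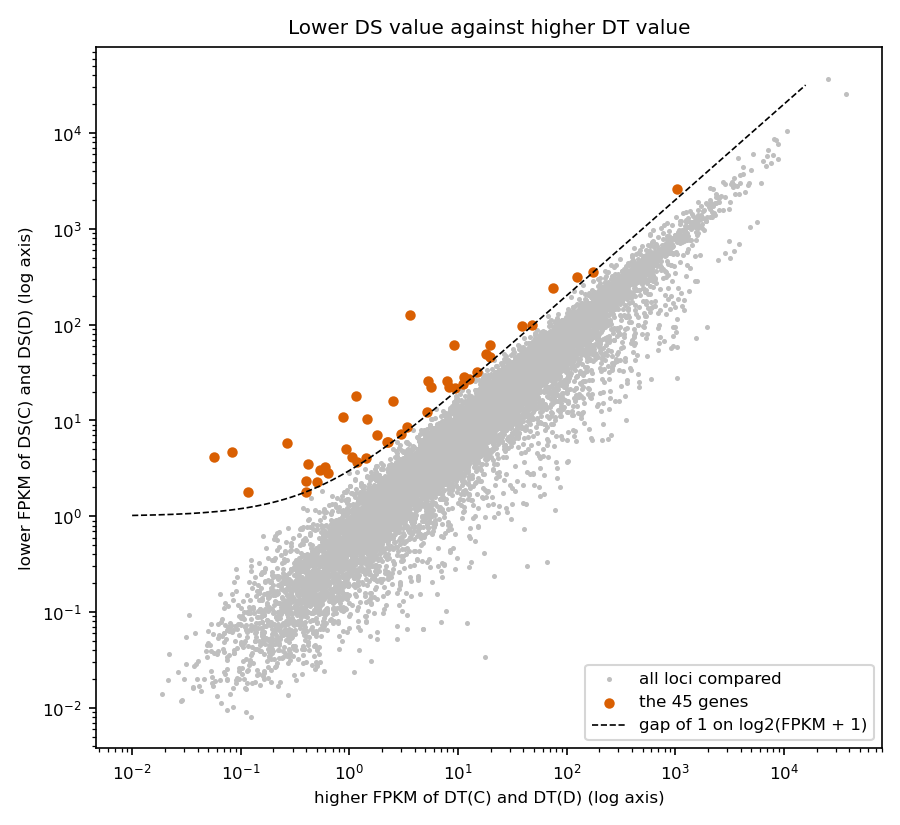
The lower FPKM of DS(C) and DS(D) against the higher FPKM of DT(C) and DT(D), both on log axes, for the 18807 genes compared (grey) and the 45 genes (orange). The dashed line is the gap of 1, and the genes above it spread from 0.0572 to 1042 FPKM on the DT axis.

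The limit of the rule cuts through a continuous range. Just inside it were Ca_14771 with a gap of 1.01, Ca_16710 with 1.01 and Ca_09538 with 1.02. Just outside were Ca_11868 with 0.96, Ca_00343 with 0.96 and Ca_03790 with 0.95. Ca_14771 had 1.80 FPKM in DS(C), 2.01 in DS(D), 0.179 in DT(C) and 0.395 in DT(D). Ca_11868 had 42.6 FPKM in DS(C), 42.8 in DS(D), 18.4 in DT(C) and 21.4 in DT(D). The number of genes also depends on the pseudocount, which holds back genes of low FPKM: it was 68 with a pseudocount of 0.1 and 94 with none. All 45 were among them each time, which is no support for them. A smaller pseudocount can only widen a gap in favour of DS, so none of the 45 could be lost. With FPKM of at least 1 required in all conditions, 28 genes were left.

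The rule asks for more than a difference within each water supply. DS was above DT by at least 1 under control for 427 genes (2.27% of those compared) and under drought for 340 genes (1.81%). Both held for 80 genes (0.425%), and 35 of these 80 did not meet the rule, because drought and control values of the 2 genotypes came too near each other across the water supplies. Among the 45, the DS minus DT difference ranged from 1.02 to 4.86 under control, with a median of 1.66, and from 1.04 to 5.08 under drought, with a median of 1.70.

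Drought differences of at least 1 within a genotype were found for few of the 45 genes, and for few of all genes compared. In DS, no gene of the 45 was higher under drought by at least 1 and 4 were lower, beside 2.36% and 5.51% of all genes compared. In DT, 2 were higher and 2 were lower, beside 2.13% and 5.65%. The median drought difference was -0.07 in DS and 0.03 in DT, and over all genes compared it was 0.00359 in DS and 0.0228 in DT. The DS median had no stable sign: it was 0.16 after the columns were rescaled to the same summed FPKM and 0.0746 with no pseudocount. These differences use the same 4 values as the rule, so nothing is read from them. For 38 of the 45 genes both drought differences stayed under 1 in size, beside 87.3% of all genes compared, and for 30 both stayed under 0.5, beside 56.9%. The highest value, which the rule places in DS, was that of DS(C) for 24 genes and that of DS(D) for the other 21, beside 24% and 18.5% of all genes, whose highest value could also be in DT. This order turned with the scaling: after the columns were rescaled to the same summed FPKM, 12 of 38 genes were highest in DS(C).

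The steadiest genes had nearly the same level in both conditions of each genotype. Ca_14760 had 23.6 FPKM in DS(C), 22.4 in DS(D), 5.69 in DT(C) and 5.32 in DT(D). Ca_05396 had 22.3 FPKM in DS(C), 22.7 in DS(D), 8.23 in DT(C) and 7.68 in DT(D). Ca_22967 had 10.5 FPKM in DS(C), 10.5 in DS(D), 1.45 in DT(C) and 1.29 in DT(D). For these 3 genes no drought difference exceeded 0.10 on the log2(FPKM + 1) scale, against genotype gaps of 1.81, 1.34 and 2.23.

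In DS, 4 of the genes were lower under drought by at least 1. For Ca_25730 the drought difference in DS was -1.47, for Ca_11543 it was -1.46, for Ca_00388 it was -1.44 and for Ca_16249 it was -1.16. Ca_00388 was lower under drought in both genotypes, with 35.2 FPKM in DS(C), 12.3 in DS(D), 5.15 in DT(C) and 0.651 in DT(D). Its drought difference in DT was -1.90, the lowest of the 45, so the DS to DT ratio was 6.82 under control and 18.9 under drought. Ca_16249 had 9.38 FPKM in DS(C), 3.65 in DS(D), 1.17 in DT(C) and 0.951 in DT(D), and was lower under drought mainly in DS.

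The largest upward drought differences in DS stayed below 1. They were 0.81 for Ca_03551, 0.79 for Ca_22414, 0.70 for Ca_16710 and 0.57 for Ca_19059. Ca_22414 had 2.32 FPKM in DS(C), 4.75 in DS(D), 0.398 in DT(C) and 0.305 in DT(D). Ca_16710 had 98.9 FPKM in DS(C), 161 in DS(D), 37.7 in DT(C) and 48.4 in DT(D). In DT, the genes with the largest drought differences upward were Ca_13034 with 1.24, Ca_14184 with 1.06, Ca_15136 with 0.67 and Ca_25962 with 0.58. Ca_14184 had 36.1 FPKM in DS(C), 25.6 in DS(D), 3.23 in DT(C) and 7.85 in DT(D), so its DT level under drought was 2.43 times that under control and still below both DS values. Apart from Ca_00388, the lowest drought differences in DT were those of Ca_03551 with -1.15, Ca_00934 with -0.39 and Ca_22186 with -0.37.

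**Figure D3:**
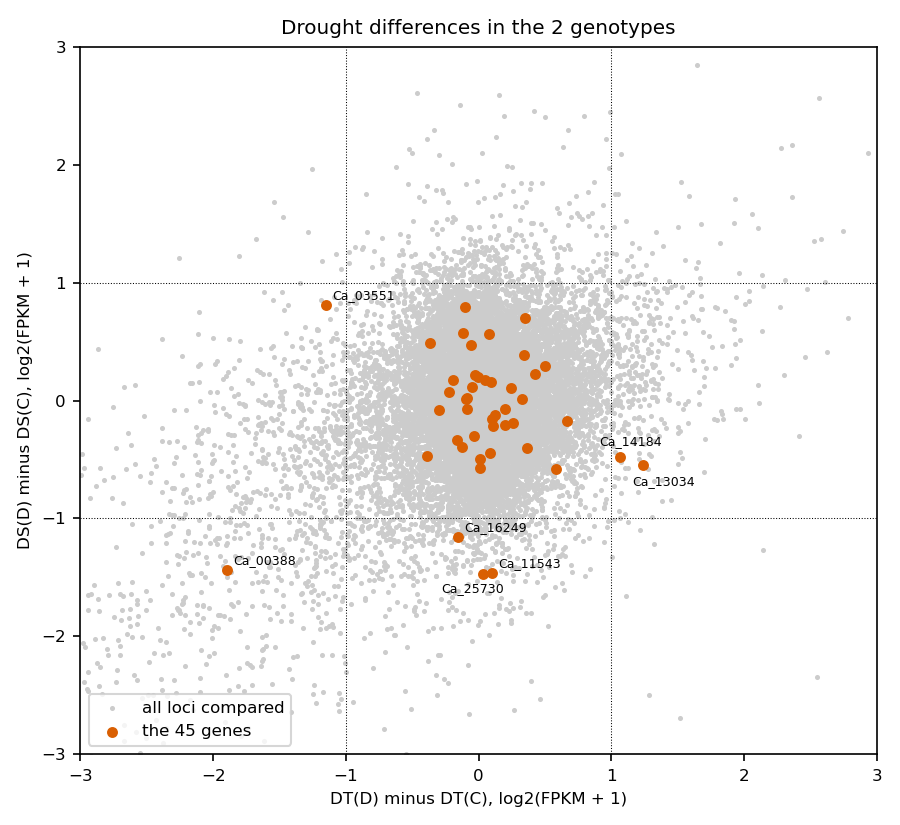
Drought minus control on log2(FPKM + 1) in DT (horizontal) and DS (vertical) for the genes compared (grey, 154 of them beyond the axes) and the 45 genes (orange), with those at 1 or more in size named and dotted lines at 1 and -1. Inside the dotted lines lie 38 of the 45, and Ca_03551, at -1.15 in DT and 0.81 in DS, lies at their upper left.

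The size of the genotype difference was not the same with and without water for every gene. It changed by at least 1 between control and drought for 7 of the 45 genes, beside 11.3% of all genes compared. It was smaller under drought for 6 of them and larger for 1. In 6 of the 7 the drought differences of the 2 genotypes also had opposite signs. The same held for 1471 of the 2132 genes compared whose genotype difference changed by at least 1. As 6 of the 45 genes, they stand beside 7.82% of all genes compared. Ca_03551 was the gene in which the genotype difference was larger under drought. With 7.15 FPKM in DS(C), 13.3 in DS(D), 2.96 in DT(C) and 0.785 in DT(D), its DS to DT ratio was 2.42 under control and 16.9 under drought. Ca_13034 showed the reverse, with a ratio of 11.3 under control and 3.22 under drought. The differences of Ca_22414, Ca_22186 and Ca_19059 were also larger under drought, by 0.89, 0.86 and 0.68. Ca_22186 had 8.65 FPKM in DS(C), 12.5 in DS(D), 3.37 in DT(C) and 2.39 in DT(D).

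The identifiers of the 45 genes lay scattered over the numbering, with a single pair of consecutive numbers, Ca_13034 and Ca_13035. The next smallest step was 11, from Ca_14760 to Ca_14771. The number order was used here in place of map positions, which were not used: of 28268 pairs of consecutive identifiers, 52.1% lay within 5 rows of each other in the deposited table. Ca_13034 had 353 FPKM in DS(C), 242 in DS(D), 31.3 in DT(C) and 75.1 in DT(D). Ca_13035 had 60.7 FPKM in DS(C), 65.7 in DS(D), 19.6 in DT(C) and 18.9 in DT(D). Both were higher in DS by more than 3 times in each water supply, but drought moved Ca_13034 and hardly moved Ca_13035. The identifier Ca_13034 stands on a further locus of the table, with 47.3 FPKM in DS(C), 52.2 in DS(D), 26.8 in DT(C) and 27.7 in DT(D), a gap of 0.75 that misses the rule. The same is true of Ca_10551, whose selected locus had 7.72, 5.92, 2.29 and 1.94 FPKM in DS(C), DS(D), DT(C) and DT(D), while its other locus had 26.4, 41.6, 16.7 and 12.8 FPKM with a gap of 0.63. How fragments were shared between the loci of an identifier is not known from the table.

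Around this pair, 13 of the 18 genes from Ca_13026 to Ca_13043 had an FPKM above 0 in all conditions. Ca_13027, 7 numbers before Ca_13034, just missed the rule with a gap of 0.92. Ca_13036, the next number after Ca_13035, went the other way: it had 0.0963 FPKM in DS(C), 0.0789 in DS(D), 6.90 in DT(C) and 5.61 in DT(D). Ca_13033, the number before Ca_13034, had 1942 FPKM in DS(C), 1719 in DS(D), 1358 in DT(C) and 1728 in DT(D), with no steady order of the genotypes. Genotype differences of more than 1 in both water supplies were thus found for 3 genes with consecutive numbers, 2 higher in DS and 1 higher in DT. The locus numbers of Ca_13034 and Ca_13035 in the deposited table, XLOC_025212 and XLOC_024463, are not consecutive. Whether these genes lie together in the genome was not looked up. Ca_13027, Ca_13033 and Ca_13036 were picked for their place in the numbering after their values were seen.

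**Figure D4:**
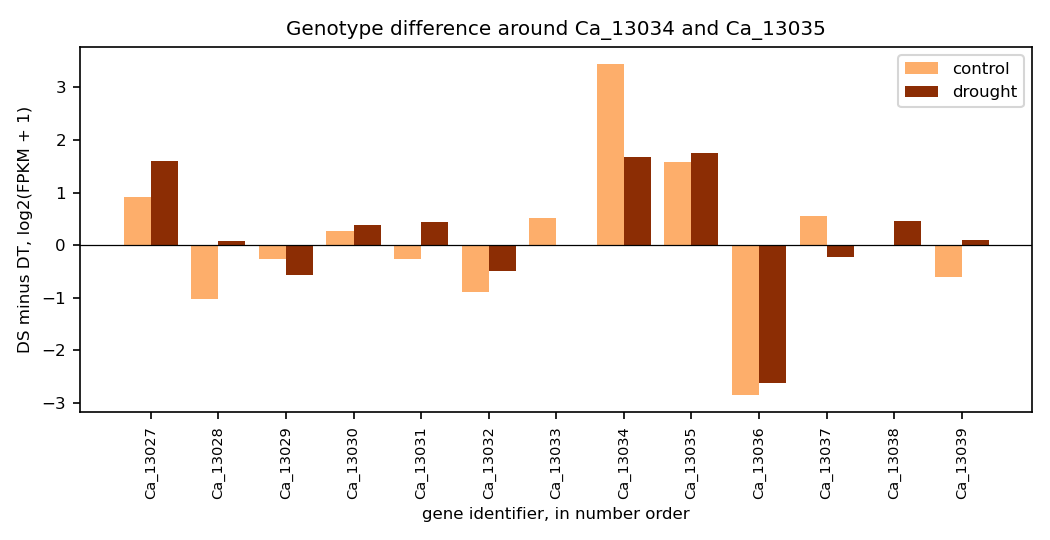
DS minus DT on log2(FPKM + 1) under control (light) and drought (dark) for the 13 genes from Ca_13027 to Ca_13039 in number order, 1 pooled value per condition. Ca_13034 and Ca_13035 stand above 1 in both waters, and Ca_13036 stands at -2.85 and -2.62.

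Over all 45 genes, 58 other genes with the number just before or after them could be compared. DS was above DT by at least 1 in both water supplies for 2 of the 58 (3.45%), beside 0.425% of all genes compared. That share counts the 45 genes themselves, which the neighbours leave out: of the 80 genes behind it, 35 were not among the 45. DT was above DS in the same way for 2 (3.45%), beside 0.601%. Within 5 numbers, these counts were 3 (0.923%) and 7 (2.15%) of 325. These shares rest on few genes and had no test. The neighbours higher in DS were Ca_00933, next to Ca_00934, with 10.9, 3.15, 2.66 and 0.302 FPKM in DS(C), DS(D), DT(C) and DT(D), and Ca_23897, next to Ca_23898, with 593, 217, 134 and 98.9 FPKM in that order. The neighbours higher in DT were Ca_13036, given above, and Ca_00387, next to Ca_00388, with 36.0, 45.6, 75.8 and 97.7 FPKM in that order. These neighbours were also picked after their values were seen.

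The genes that the study names for 3 of its pathways were looked up among the 45. Of those for phosphatidylinositol signalling, which turns membrane lipids into second messengers, 18 could be compared and none met the rule, beside 0.239% of all genes compared. The same was found for 26 genes of glutathione metabolism, which detoxifies peroxides, and for 43 genes of glycolysis and gluconeogenesis, which break down and rebuild sugars. The largest gap in these 3 lists was 0.20, that of a gene of glutathione metabolism. Of 22 genes named from the QTL-hotspot, a genome region tied to drought traits, none met the rule, and the largest gap was 0.72. They are a part of the genes the study places in that region. DS was above DT by at least 1 in both water supplies for 1 of these 22, beside 0.425% of all genes compared. No gene of the 3 pathway lists had this. At a share of 0.239%, lists of this size would mostly hold no member, so nothing is read from their absence. The study picked these lists with the same samples in view.

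The opposite group, higher in ICC4958 whatever the water by the mirrored rule, numbered 65 genes (0.346% of those compared). Its gaps had a median of 1.30, close to the 1.32 of the 45 genes, and its highest gap was 3.77 against 4.79. It held 18 genes under 1 FPKM in both conditions of the lower genotype, where the 45 held 13. Under drought, 3 of its genes were lower in DS by at least 1 and none was higher, and in DT 3 were higher and 2 were lower. With FPKM of at least 1 required in all conditions, the opposite group held 41 genes, beside the 28 higher in ICC1882. Which group was larger depended on the scaling. After rescaling to the same summed FPKM, 66 genes were higher in ICC4958 and 38 in ICC1882. After scaling to a median difference of 0, these counts were 52 and 49. With values centred within 10 groups of expression, a setting chosen after seeing the data, they were 48 and 54. Loci without an identifier met the rule more often, with 41 of 2863 (1.43%) higher in DS. Several of the 41 have close locus numbers, such as XLOC_020196, XLOC_020197 and XLOC_020198. Whether such loci are parts of the same transcript was not looked up, so the 41 may not be separate genes. The median FPKM of the 41 was 12.1 in DS(C), 11.8 in DS(D), 1.71 in DT(C) and 1.33 in DT(D).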

How the data were processed

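By the study's methods and the submitters' processing notes, the authors quality-filtered single-end reads (NGSQC Toolkit 2.3.3) and aligned them with TopHat2 2.1.1 to version 1.0 of the kabuli genome. Transcripts were assembled with Cufflinks 2.2.1 and merged, and the authors called differential expression with Cuffdiff 2.2.1. They deposited 1 FPKM value per locus and condition, pooling 2 libraries. The library normalization is not given in the sources used here. Both genotypes were mapped to 1 reference, so a value also depends on how well the reads of a genotype match it, which was not tested. The depth behind a value is unknown, and no interval or floor was computed.

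Columns were assigned to conditions by name. Differences were taken on log2(FPKM + 1), with a limit of 1 and no test. The code was checked on simulated data, in which a large rise in DS was put into well-expressed loci with little noise. That check says nothing about genes of low FPKM or near the limit. The members and lists were chosen with earlier results of these data known. Named genes were those with the 12 largest gaps, the 12 highest lower DS values, the 4 largest drought differences each way in each genotype, the 4 genotype differences that widened or narrowed most, the 4 steadiest genes, list members, identifier runs, and 3 on each side of the limit. Alternatives were pseudocounts of 0.1 and 0, FPKM minimums of 1 and 5, 2 rescalings, a gap of 2, single identifiers, FPKM of 0 in DT, and centring within 10 groups of expression, which was chosen after seeing the data. Python 3.11.15, numpy 2.4.6, pandas 2.3.3 and matplotlib 3.10.9 were used.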

Additional observations from a re-analysis of the deposited data

Results flagged for a closer look

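In 6 of the 45 genes the drought difference had opposite signs in the 2 genotypes and differed between them by at least 1 on log2(FPKM + 1), beside 7.82% of all genes compared. Each value is the DS minus DT difference under drought less that under control, and none of these differences was tested. It was -1.78 for Ca_13034, -1.57 for Ca_11543, -1.55 for Ca_14184, -1.50 for Ca_25730 and -1.16 for Ca_25962, in which the genotypes came closer under drought. It was 1.96 for Ca_03551, in which they moved apart. For Ca_11543 and Ca_25730 the DT side of the change was only 0.10 and 0.03, so the opposite sign there rests on very small DT differences.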

How the results depend on the processing

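No paired analysis was possible because each deposited value already combines both libraries of its condition, and for the same reason no library could be left out. Under the 2 rescalings and the centring within 10 groups of expression, the gaps of the 45 genes stayed above 0, the lowest being 0.66 with the centring, which was chosen after seeing the data. The rule had chosen these genes for gaps of at least 1, so a gap above 0 is no support for them. At the limit of 1, 35 of the 45 were kept after rescaling to the same summed FPKM. All 45 were kept after scaling to a median difference of 0, and 43 with the centring. The scaling to a median difference of 0 raised DS against DT, and the lowest gap of the 45 went from 1.01 to 1.06. Keeping all 45 there is therefore no support for them. The causes of the changes below were not tested.

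With a pseudocount of 0.1, 68 genes were higher in ICC1882 and 125 in ICC4958 whatever the water. Of the 68, 1 was higher under drought in DS, 4 were higher and 4 lower in DT, the genotype difference changed for 12, and the median DS drought difference was 0.0287. With no pseudocount these numbers were 94, 183, 4, 12, 12, 29 and 0.0746, and 39 genes were highest in DS(C). With FPKM of at least 1 in all conditions, 28 and 41 genes were left, of the 28 1 was lower under drought in DS and 0 in DT, and the genotype difference changed for 3. With FPKM of at least 5 in both DS conditions, 22 genes were higher in ICC4958, a group whose lower genotype this minimum acts on, and 2 of those higher in ICC1882 were lower under drought in DS.

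Rescaling the columns to the same summed FPKM moved the median DS minus DT difference of all genes from -0.08 to -0.29 under control and from -0.09 to 0.05 under drought. It left 38 genes, 35 of them among the 45. Of the 38, 1 was higher and 2 were lower under drought in DS, 1 was lower in DT, 12 were highest in DS(C), and the median DS drought difference was 0.16. A gap of at least 2 left 10 genes higher in ICC1882 and 12 in ICC4958. The median gap of the 10 was 2.41 and their median DS drought difference -0.26. Of the 10, 2 were lower under drought in DS, 0 were higher and 0 lower in DT, the genotype difference changed for 2, 7 were highest in DS(C), and 0 were consecutive by identifier. With FPKM of 0 allowed in DT, 57 genes met the rule, 1 was higher under drought in DS and 4 were consecutive by identifier.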
